A study of Mus musculus with 50 samples.

Results

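The 7 genes described here carry out the urea cycle and the neighbouring steps of arginine and creatine synthesis. They were chosen by name as the rows of the gene count files for Cps1, Otc, Ass1, Asl, Nags, Gatm and Gamt, 7 of the 24984 genes counted, and all 7 were found. The series held 38 RNA-seq libraries in 10 groups and 12 ATAC-seq libraries in 4 groups, all from C57BL/6 mice. Kidney and liver were untreated, from young mice of 2.5 months or old mice of 23 to 25 months, with 4 RNA-seq and 3 ATAC-seq libraries a group, and the study's methods describe these mice as female. A further set came from mice of 20 to 21 months given DMSO, the solvent control, or 3C, a treatment that the labels do not explain, with 4 RNA-seq libraries of kidney and 4 of liver for each. Skin fibroblasts labelled P9 were given DMSO or 3C, with 3 RNA-seq libraries each. Total counts were 14.2 to 43.7 M reads in genes per library (M, 1e6 reads).

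In mammals, the liver turns ammonia into urea. Nags makes N-acetylglutamate, the obligate activator of Cps1, which joins ammonia and bicarbonate to carbamoyl phosphate in mitochondria, and Otc adds this to ornithine to give citrulline. Ass1 and Asl then convert citrulline to arginine in the cytosol. The kidney carries little of the early steps and uses Ass1 and Asl to make arginine from citrulline that reaches it in blood. Gatm and Gamt are the successive enzymes of creatine synthesis, with Gatm drawing on arginine.

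In RefSeq (GRCm38), Nags lies at chr11:102145513-102149528, Cps1 at chr1:67122426-67231267, Otc at chrX:10252230-10321024 and Ass1 at chr2:31470270-31520670. Asl lies at chr5:130011258-130024381, Gatm at chr2:122594473-122611277 and Gamt at chr10:80258151-80261025. Nags, Cps1, Otc and Ass1 are on the plus strand and the other 3 on the minus strand.

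Promoter sequences from RefSeq (GRCm38.p6) were at hand for 5 of the 7 genes, Otc, Ass1, Nags, Gatm and Gamt, and were read over the 250 bases before the start site. Those of Otc, Ass1 and Gatm are shown because they stand for a promoter with peaks in liver alone, a promoter with peaks in both organs whose mRNA was hardly counted, and the promoter of the most kidney-rich member. Capitals mark CpG dinucleotides, and each sequence runs 5′ to 3′ on the strand of its gene. They lie at chrX:10252055-10252304 (plus strand), chr2:31470020-31470269 (plus strand) and chr2:122611278-122611527 (minus strand). The transcript start used for Otc lies slightly inside the outermost gene boundary given above.
Otc: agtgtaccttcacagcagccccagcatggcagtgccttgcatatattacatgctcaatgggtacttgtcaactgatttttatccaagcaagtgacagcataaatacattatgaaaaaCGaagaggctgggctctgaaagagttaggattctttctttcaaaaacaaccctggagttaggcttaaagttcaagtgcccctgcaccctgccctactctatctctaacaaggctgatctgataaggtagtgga
Ass1: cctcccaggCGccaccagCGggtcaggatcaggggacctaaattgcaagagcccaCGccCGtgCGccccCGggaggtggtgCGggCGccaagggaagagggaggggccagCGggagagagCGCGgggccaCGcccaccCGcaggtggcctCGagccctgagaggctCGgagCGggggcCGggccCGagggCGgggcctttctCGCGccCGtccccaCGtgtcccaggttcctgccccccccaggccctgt
Gatm: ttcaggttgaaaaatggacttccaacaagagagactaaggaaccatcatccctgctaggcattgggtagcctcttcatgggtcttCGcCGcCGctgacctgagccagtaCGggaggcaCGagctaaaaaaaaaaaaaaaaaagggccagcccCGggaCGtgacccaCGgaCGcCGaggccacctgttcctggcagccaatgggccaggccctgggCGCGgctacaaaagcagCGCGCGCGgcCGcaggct
The Otc promoter held 1 CpG, and 7.9% of all 32817 RefSeq promoter windows of that length held fewer. The Ass1 promoter held 23 (86.7% of promoters had fewer), Gatm 17 (76.5%), Gamt 12 (66.5%) and Nags 11 (64.5%), against a median of 6.0 over all promoters. A GC box (GGGCGG, searched on both strands, present in 32.7% of all promoters) stood in Ass1, Nags and Gamt, with 3 of them in Gamt and 2 in Nags. A CCAAT box (CCAAT, 33.8% of promoters) stood at 2 places in Gatm, from -190 to -186 and from -55 to -51 with the start site at position 0. No match was found in these windows for TATAAA (12.4% of promoters), TGANTCA (6.75%), TGACGTCA (1.55%) or TTGCGNAA (0.67%), and no matches overlapped.

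The level of every member by library is plotted on the RPKM scale (reads per kilobase of RefSeq exon per 1e6 reads in genes), which allows members to be compared per length. Cps1, Otc and Nags were liver genes, Gatm was a kidney gene, and Asl and Gamt were counted in every library of all 10 groups. Ass1 was hardly counted anywhere. At the head of the pathway, Nags stood at 33.3 ± 1.8 RPKM (SD, n = 4) in young liver and 39.7 ± 3.2 (n = 4) in old liver, with 0 to 3 reads in each young kidney library. Cps1 reached 786 ± 332 RPKM (n = 4) in young liver, 715 ± 398 (n = 4) in old liver, 496 ± 63 (n = 4) in liver with DMSO and 471 ± 38 (n = 4) in liver with 3C. Its liver libraries varied more at both ages, from 319 to 1182 RPKM in old liver, than in the treated set, and the 4 liver groups overlapped. Otc stood at 245 ± 20 RPKM (n = 4) in young liver and 223 ± 68 (n = 4) in old liver.

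**Figure D1:**
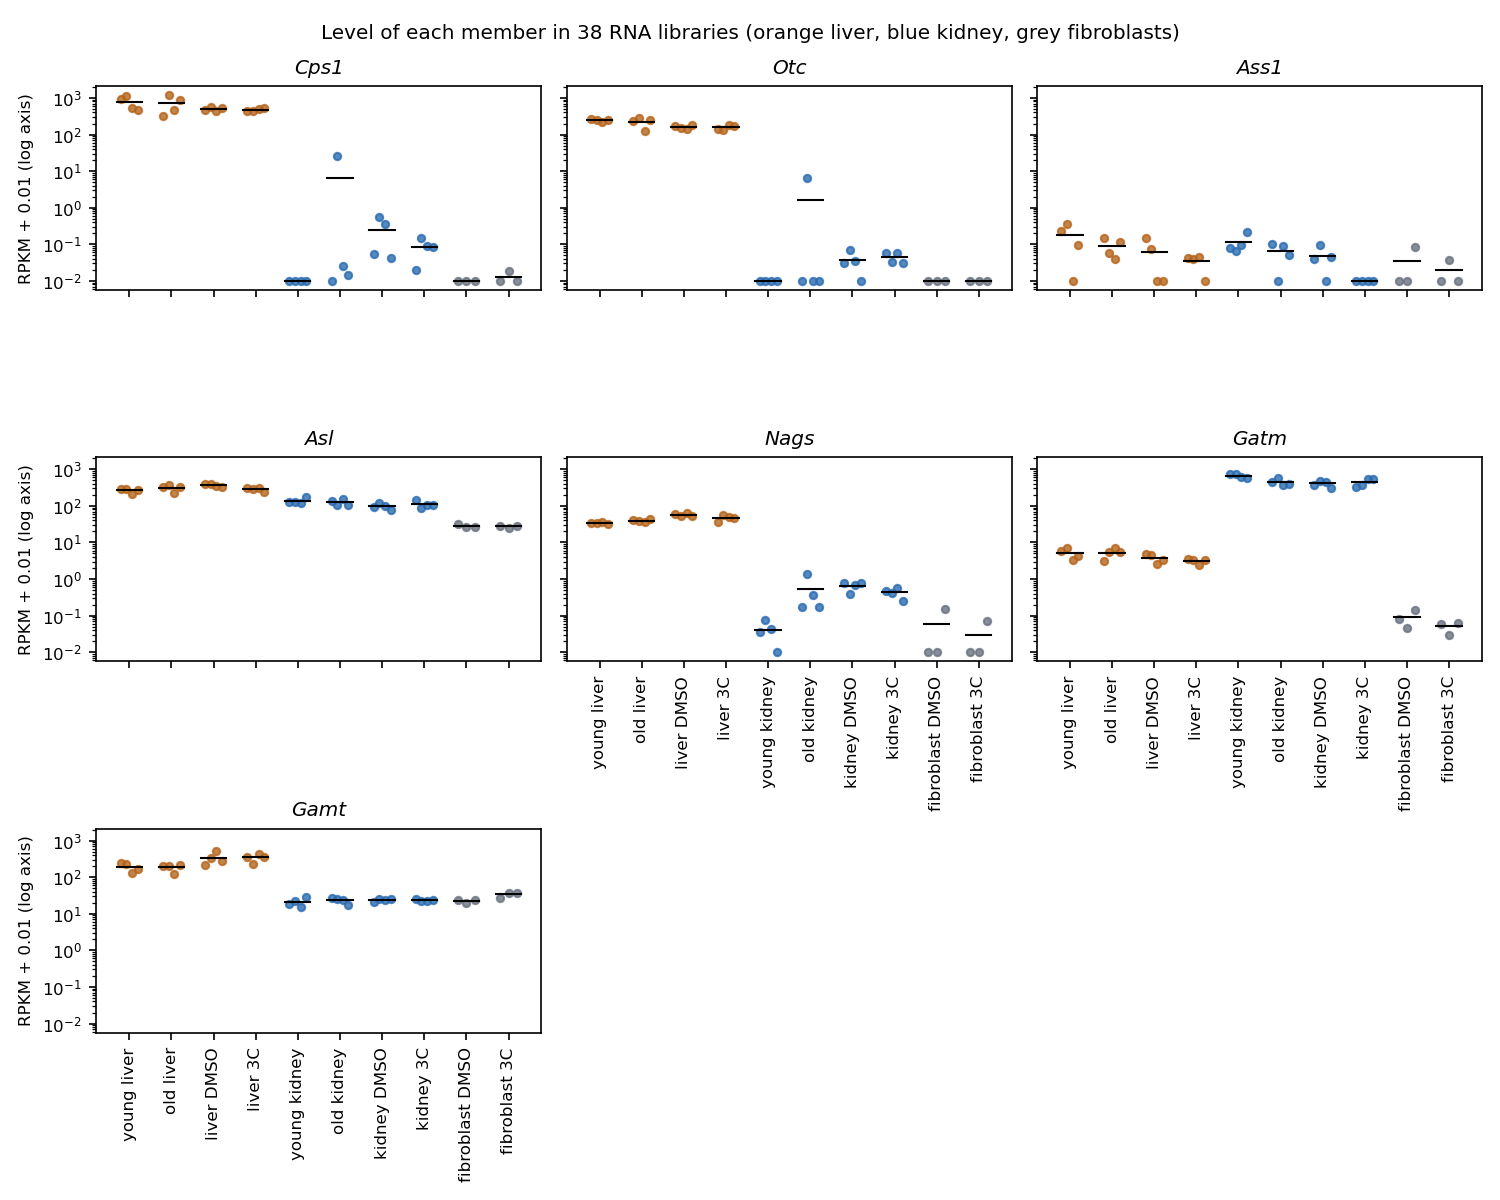
Level of each of the 7 members in 38 RNA-seq libraries, by group, as RPKM + 0.01 on a log axis. Points are libraries and bars are group means. Cps1, Otc and Nags are high in the 4 liver groups, Gatm in the 4 kidney groups, Asl and Gamt are present throughout, Ass1 is near 0 throughout, and old kidney replicate 2 stands above the other old kidney libraries for Cps1, Otc and Nags.

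Asl, the lyase that releases arginine, was shared by both organs. Its level was 296, 296, 209 and 272 RPKM in the 4 young liver libraries and 125, 130, 116 and 176 RPKM in the 4 young kidney libraries, and 97.57% of the 24431 genes with a length stood below it in young kidney. Fibroblasts held 27.9 ± 3.5 RPKM with DMSO (n = 3), below every kidney library. Gamt, which completes creatine, was mainly a liver transcript, at 192 ± 52 RPKM (n = 4) in young liver and 21.0 ± 6.0 (n = 4) in young kidney, and fibroblasts with DMSO held 22.9 ± 2.6 (n = 3), within the range of the kidney groups. Gatm, which opens the same route, was at 734, 759, 602 and 594 RPKM in the young kidney libraries and 5.83, 6.89, 3.32 and 4.23 RPKM in the young liver libraries. It was the 73rd highest of 24431 genes in young kidney and the highest member there.

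Ass1 was counted at 0 to 13 reads in each of the 38 libraries, so no fold change or ratio is given for it. Of its 865 exonic words of 50 bases, 580 (67.1%) also occurred exactly elsewhere in the genome, in the transcribed pseudogene Gm5424, which was itself listed at 0 reads in every library. None of the other 6 members had such a word elsewhere. The rest of its words occurred in Ass1 alone, and why reads from them were few too was not tested. Its low count cannot be read as a low level, and how the counting treated reads that fit both places was not tested. Nags shares 20.9% of its exon bases with genes annotated on the other strand, which counts made without regard to strand cannot tell apart.

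Old kidney replicate 2 carried liver transcripts. Over 10 hepatocyte markers its median level was 2.83% of the mean old liver level, while in the other 15 kidney libraries the medians ran from 0.0530% to 0.223%. The summed markers were 208 to 4139 counts per 1e6 reads in genes (CPM) in old kidney and 207 to 283 in young kidney, and none of the 10 was at 0 in all libraries of either group. The liver members followed. Cps1 was counted at 3480 reads in that library and at 0, 2 and 1 in the other old kidney libraries, Otc at 365 against 0, 0 and 0, and Nags at 70 against 7, 17 and 15. As shares of the old liver mean, Cps1 and Otc in this library came to 3.62% and 2.92%. The values of these members in old kidney are therefore given with and without it.

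Kidney was compared with liver in young mice, in old mice and in mice given DMSO, to set arginine synthesis beside urea production. In all 3 comparisons Gatm was higher in kidney and Cps1, Otc, Nags, Gamt and Asl were higher in liver, past an adjusted p of 0.05 and a fold of 2, with kidney and liver libraries apart for every one of them. Calls by this rule were common between these organs, at 42.6% of 14057 genes tested in young, 40.7% in old and 42.3% with DMSO. The share of all genes with kidney and liver libraries apart was not counted, so this separation is not shown to be particular to the members. Ass1 did not pass the filter on low counts. In young mice Gatm was 63.2-fold higher in kidney (log2 5.98, SE 0.23, adjusted p 4.67e-10, edgeR quasi-likelihood test with Benjamini-Hochberg adjustment). Asl was 4.14-fold lower in kidney (log2 -2.05, SE 0.19) and Gamt 19.1-fold lower (log2 -4.25, SE 0.26). In bulk tissue, fewer cells of a type and less RNA per cell cannot be told apart.

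Kidney counts of Cps1, Otc and Nags were low and are given for each set. No read of Cps1 or Otc was counted in the 4 young kidney libraries. Against a floor of 3 reads over the group, Cps1 was at least 106230-fold lower and Otc at least 13712-fold lower in its share of reads than in young liver. Nags had 5 reads over the 4 young kidney libraries and 6180 over the 4 young liver libraries. In kidney with DMSO, Cps1 was counted at 5, 43, 32 and 3 reads and Otc at 1, 2, 1 and 0, which put Cps1 2268-fold and Otc 6404-fold below liver with DMSO in their share of reads. Replicates 2 and 3 held most of these Cps1 reads, and the fitted log2 difference of Cps1, -12.08, ran from -12.81 (without kidney with DMSO replicate 2) to -11.71 when 1 library was left out. With 3C, the kidney libraries held 1, 15, 8 and 9 reads of Cps1. In kidney with DMSO, Nags was at 0.65 ± 0.18 RPKM (n = 4), from 12 to 32 reads a library. It was 171-fold below liver in the fit (log2 -7.42, SE 0.20) and 85.7-fold below in its share of reads. In old mice the fitted differences were -7.95 (SE 2.62) for Cps1 and -8.32 (SE 2.05) for Otc. Both rest on old kidney replicate 2. The other 3 old kidney libraries held 3 reads of Cps1 in all, which put it 118980-fold below old liver in its share of reads (95% interval 40713 to 576950, exact, counting error only). They held 0 reads of Otc, which was at least 15231-fold lower against the same floor of 3 reads over the group. The fitted difference of Nags moved from -7.43 to -8.52 without that library.

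**Figure D2:**
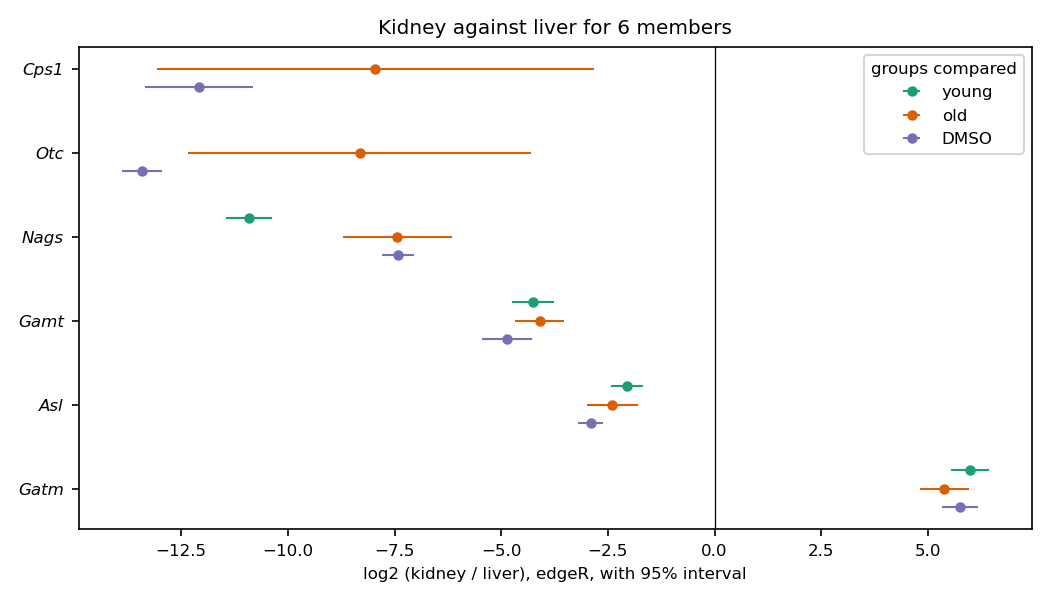
Difference between kidney and liver for 6 members as log2 (kidney / liver), with points for the estimate and bars for the 95% interval, in young, old and DMSO groups. Gatm lies to the right of 0 and the other 5 to the left, with the widest bars for Cps1 and Otc in old mice. Cps1 and Otc are left out in young mice, where kidney had 0 reads.

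The fitted log2 differences and their folds were scaled by TMM, while the folds in share of reads were taken from plain library totals. Scaled to plain library size, the median difference of all genes between kidney and liver moved to 1.16 on the log2 scale in young, 1.12 in old and 1.06 with DMSO, and the members moved with it. Of the genes called, 60.4% were higher in young kidney with TMM (3618 higher and 2369 lower) and 86.3% with plain library size (7802 and 1240), and the shares were 60.5% and 87.4% in old and 62.9% and 86.7% with DMSO. Asl in young mice then stood at -0.97, short of a 2-fold change, and it was the only member whose call was lost in this way. The direction of every member was the same with both scalings.

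The lists around the cycle are read against the 42.6% of all genes called in young mice with TMM, and their counts with plain library size stand beside those with TMM. The counts with plain library size have another background, since 9042 of the 14057 genes were called with it, against 5987 with TMM. Of 16 tested genes that supply ammonia or move ornithine, 1 was higher and 10 lower in young kidney, and their median was -1.44 on the log2 scale against 0.08 over all genes. With plain library size 3 were higher and 4 lower, and the median was -0.36 against 1.16. Gls2, which releases ammonia from glutamine in liver, was 0.0487 RPKM in young kidney and 194 in young liver. The glutamate carrier Slc25a22 and the mitochondrial carbonic anhydrase Car5a, which supplies bicarbonate to Cps1, were both lower in kidney, by log2 differences of -3.83 (SE 0.14) and -3.86 (SE 0.22). Glud1, which releases ammonia from glutamate, differed by -1.70 (SE 0.15), the ornithine carrier Slc25a15 by -1.73 (SE 0.16), Oat, which makes glutamate semialdehyde from ornithine, by -1.97 (SE 0.20) and the glutamine synthetase Glul by -1.02 (SE 0.16). With plain library size none of these last 4 passed both thresholds, with Glud1 at -0.62, Slc25a15 at -0.66, Oat at -0.91 and Glul at 0.05 (adjusted p 0.791 in edgeR), each having moved along with the median of all genes. Of 20 amino acid breakdown genes, 0 were higher and 14 lower, and 0 and 12 with plain library size. Tat, which breaks down tyrosine, stood at 577 RPKM in young liver and 0.00481 in young kidney, Tdo2 (tryptophan) at 613 and 0.0433, Sds (serine) at 171 and 0.0683 and Agxt (glyoxylate and alanine) at 319 and 0.0601.

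Of 14 urea, arginine and citrulline transport genes, 11 were higher and 2 lower in young kidney, and 12 and 2 with plain library size. The urea transporters Slc14a2 and Slc14a1 stood at 22.5 and 1.56 RPKM in young kidney against 0.00213 and 0.0172 in young liver. Slc7a7, which exports basic amino acids, was higher in kidney by 5.09 (SE 0.19) and the aquaporin Aqp3 by 9.89 (SE 0.37), while Aqp9, which passes urea and glycerol in hepatocytes, was lower by a log2 difference of -13.3. Of 16 arginine and ornithine use genes, 6 were higher, 2 were lower and 8 were not called, near the 42.6% called over all genes with TMM. With plain library size 12 were higher and 2 lower, beside 9042 of 14057 genes called, 86.3% of them higher in kidney. Odc1, which opens polyamine synthesis, was higher in kidney 4.0001-fold and the spermine synthase Sms 5.59-fold, whereas agmatinase (Agmat) was lower, at a log2 difference of -7.25 (SE 0.33), and the polyamine oxidase Paox at -3.36 (SE 0.16). The nitric oxide synthase Nos2 passed at 2.14 (SE 0.76) with 0.228 RPKM in kidney, and Nos3 was 0.38 (SE 0.20, adjusted p 0.12 in edgeR), though it was called higher with plain library size (1.46).

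Of 5 creatine handling genes tested, 3 were higher in young kidney and 1 lower, and 4 and 0 with plain library size. The creatine kinases Ckmt1 and Ckb stood at 48.2 and 151 RPKM in kidney against 0.00665 and 5.01 in liver, and the creatine transporter Slc6a8 at 61.3 against 0.766, while Slc6a13 was lower in kidney at -1.94 (SE 0.17), or at -0.86 with plain library size. Of 13 regulators of urea cycle genes, 1 was higher and 7 lower, and 3 and 4 with plain library size. Creb3l3 was 133 RPKM in young liver and 0.0326 in young kidney, the glucagon receptor Gcgr differed by -3.37 (SE 0.14), Cebpa by -3.01 (SE 0.13) and Cebpb by -3.82 (SE 0.27).

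The comparison of old with young kidney asked which steps changed with age. Of the 7 members, 3 passed the filter on low counts (Asl, Gatm and Gamt), and 0 passed both thresholds, beside 6.08% of the 14495 genes tested. At an adjusted p under 0.05 alone, which 11.5% of genes met, Gatm was lower in old kidney. It went from 734, 759, 602 and 594 RPKM to 451, 590, 382 and 394 RPKM with the groups apart, though old kidney replicate 2 lay just below the lowest young library. Its fold was 0.661 (log2 -0.60, SE 0.14, edgeR adjusted p 0.0266), and without old kidney replicate 2 it was -0.71 (adjusted p 0.00895).

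The call was not firm. Leaving out 1 library at a time moved the edgeR adjusted p of Gatm over 0.00895 to 0.0914, and the call was lost in 6 of 8 fits, all but those without young kidney replicate 4 or old kidney replicate 2. The call was also lost with plain library size (adjusted p 0.0528), and DESeq2 gave an adjusted p of 0.000372. The direction was the same in all of these fits. Asl (log2 -0.16, 95% interval -0.55 to 0.24) and Gamt (0.11, -0.36 to 0.57) did not pass the test. The ratio of Gatm to Gamt per length within a library had a log2 mean of 5.03 ± 0.46 (SD, n = 4) in young and 4.29 ± 0.29 (n = 4) in old kidney, and the groups overlapped (difference -0.74, exact two-sided permutation p = 0.0857, adjusted p 0.571 over 15 ratios and comparisons). Most of these 15 were ratios with Ass1, which are not given and which raise the adjusted p.

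**Figure D3:**
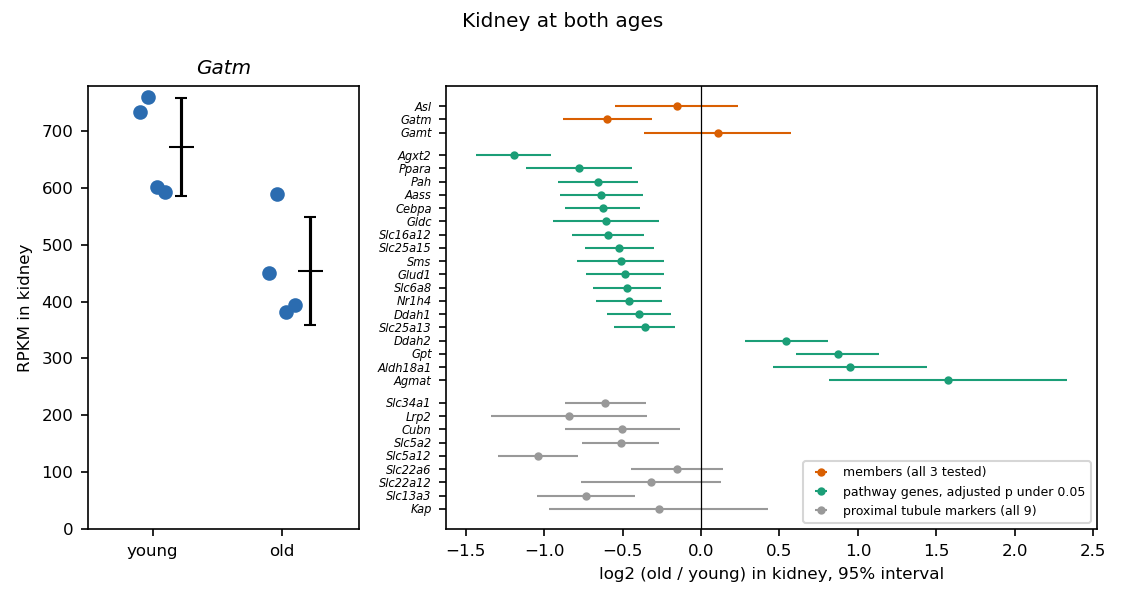
Left, RPKM of Gatm in each of 4 young and 4 old kidney libraries (points) with mean and SD (bars), where the ages do not overlap. Right, log2 (old / young) with 95% interval for the 3 members tested, for pathway genes with an adjusted p under 0.05 and for all 9 proximal tubule markers, most of which lie left of 0.

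Markers of other cells moved between the same kidney groups. Of 9 proximal tubule markers, the cells in which Gatm is chiefly made, 4 fell with age by adjusted p alone (Slc34a1 -0.61, Slc5a2 -0.51, Slc5a12 -1.04 and Slc13a3 -0.74), and their sum was 22781 to 28379 CPM in young and 14417 to 23012 CPM in old kidney, with the groups overlapping. Kap alone made up 10223 to 17753 CPM of this in young and 5733 to 15232 CPM in old kidney, and the sum of the other 8 was 10627 to 13828 CPM in young and 7152 to 8684 CPM in old kidney, with the groups apart. Without old kidney replicate 2, 6 of the 9 fell by adjusted p alone, Lrp2 (-1.06) and Cubn (-0.65) being added, and 2 by both thresholds (Lrp2 and Slc5a12). All 8 macrophage markers, all 6 B and plasma cell markers, 4 of 5 T cell markers and all 3 neutrophil markers tested were higher in old kidney by both thresholds. The macrophage sum was 139 to 160 CPM in young and 633 to 1488 CPM in old kidney, and the B and plasma cell sum 5.62 to 11.02 and 375 to 559 CPM. Their part in the change of Gatm was not tested. In kidney with DMSO, from mice of 20 to 21 months, Gatm was at 409 ± 82 RPKM (n = 4). This set was handled separately and was not tested against the others.

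Nags did not pass the filter in kidney. It was counted at 1, 3, 1 and 0 reads in young and 7, 70, 17 and 15 reads in old kidney, and when no filter was applied it was called higher in old kidney (edgeR adjusted p 0.0316). The highest of these counts was in old kidney replicate 2, and the other 3 old libraries, at 0.162 to 0.359 RPKM, still lay above the highest young library at 0.0648.

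Among the neighbouring genes in old kidney, 2 passed both thresholds, which 6.08% of all genes did. Agmat, which splits agmatine to putrescine and urea, was higher (log2 1.58, SE 0.39, edgeR adjusted p 0.028), from 2.06 ± 0.94 to 6.31 ± 2.08 RPKM (n = 4 each), with the groups overlapping. Without old kidney replicate 2 its difference was 1.53 (SE 0.42, adjusted p 0.0278), and its level in old liver was 165 ± 51 RPKM (n = 4). Agxt2, an aminotransferase that also clears dimethylarginines, was lower (-1.20, SE 0.12), from 56.7 ± 4.8 to 25.3 ± 2.9 RPKM (n = 4 each). By adjusted p alone, which 11.5% of all genes met, 3 of 15 genes that supply ammonia or move ornithine were lower and 1 higher. The 3 were Slc25a15 (-0.52), Glud1 (-0.48) and the aspartate carrier Slc25a13 (-0.36), while Aldh18a1, which makes pyrroline-5-carboxylate for ornithine and proline, was higher (0.95). Of 14 amino acid breakdown genes 4 were lower and 1 higher, of 16 arginine and ornithine use genes 2 were lower and 2 higher, of 5 creatine handling genes 2 were lower (Slc6a8 at -0.47 and Slc16a12 at -0.59), and of 12 regulators 3 were lower (Cebpa, Ppara and Nr1h4). None of 13 urea, arginine and citrulline transport genes passed. The medians of these lists ran from -0.39 to 0.11, beside 0.02 over all genes. Without old kidney replicate 2, the counts by adjusted p alone were 3 lower and 1 higher for ammonia supply, 3 lower and 1 higher for amino acid breakdown, 3 lower and 2 higher for arginine use, 2 and 2 for creatine handling, and 5 lower for regulators.

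In liver, 6 members were tested and 0 were called with age, by both thresholds or by adjusted p alone, beside 2.13% and 2.46% of 12537 genes. Cps1 differed by -0.23 (95% interval -0.95 to 0.50), Otc by -0.20 (-0.70 to 0.29) and Asl by 0.16 (-0.28 to 0.61). Nags was at 33.2, 33.7, 35.4 and 31.0 RPKM in young and 39.9, 38.7, 36.3 and 43.8 RPKM in old liver, and although the groups did not overlap, its difference was 0.20 (SE 0.16, edgeR adjusted p 0.69). Changes within these intervals were not detectable at this spread. Of the neighbouring genes, Slc3a1, the heavy subunit of the transporter for cystine and basic amino acids, was higher in old liver (log2 2.06, SE 0.29, edgeR adjusted p 0.0071), from 14.0 ± 1.3 to 60.4 ± 24.8 RPKM (n = 4 each). The bile acid receptor gene Nr1h4 was lower by adjusted p alone (-0.84). In the same livers, 3 of 8 macrophage, 4 of 5 B and plasma cell and 4 of 4 neutrophil markers tested were higher by both thresholds, and 0 of 10 hepatocyte markers were called.

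Whether the change with age differed between the organs was tested as an interaction, the liver change minus the kidney change. By edgeR it was called for 1.72% of 15036 genes and for 0 of 6 members tested, and by DESeq2 for 2 (Cps1 and Nags). Gatm stood at 0.61 (SE 0.31, edgeR adjusted p 0.41), so the change seen in kidney was not shown to be particular to it. Nags was at -3.50 (adjusted p 0.074), and at -2.44 (adjusted p 0.0516) without old kidney replicate 2. It passed without old kidney replicate 1 (-3.74, adjusted p 0.046) or 4 (-3.93, adjusted p 0.0275), and in DESeq2 (-3.70, adjusted p 0.00322). No size is read for Cps1 (adjusted p 0.129 in edgeR and 9.76e-16 in DESeq2) and Otc (adjusted p 0.204), which had no read in young kidney. Both rest on old kidney replicate 2, which held 3480 of 3483 old kidney reads of Cps1 and all 365 of Otc. Their edgeR estimates of -12.32 and -9.05 reached -2.71 and -0.21 with 1 library left out. Without old kidney replicate 2, 0 of 6 members were called by edgeR.

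Peaks of open chromatin at the start sites (within 1 kb) were compared in the same organs by ATAC-seq. No peak was found at Cps1 or Otc in any of the 6 kidney libraries. Cps1 had a peak in only 2 of 3 young and 1 of 3 old liver libraries. The peak in old liver had its summit 1098 bases from the start site and a −log10 q of 1.64. For Cps1 the ranges of young kidney and young liver overlapped (exact two-sided permutation p = 0.4). The CpG-poor Otc promoter shown above had a peak in 3 of 3 young and 2 of 3 old liver libraries, with fold enrichments of 3.93, 4.97 and 4.59 in young liver. Asl, Gatm and Gamt had a peak in all 12 libraries. Gatm was thus open in liver too, at 3.799 ± 0.70 (SD, n = 3) in young liver and 3.87 ± 0.33 (n = 3) in young kidney. Its RNA differed 63.2-fold as scaled by TMM, with means of 5.065 RPKM in young liver and 672 RPKM in young kidney from plain library totals. Ass1 had peaks in all 6 kidney libraries, at 4.03, 3.86 and 3.49 in young and 3.49, 4.29 and 5.33 in old kidney, against 2.27, 1.85 and no peak in young liver. All 3 old liver libraries had an Ass1 peak too, at 3.40, 2.37 and 2.53, with the highest just below the lowest kidney value.

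Peaks in all 3 libraries of a group were found for 4 members in young kidney, 4 in old kidney, 5 in young liver and 4 in old liver. Over 24431 genes the shares were 59.2%, 57.4%, 53.2% and 52.9% in the same order, so these counts were near the background. With an absent peak taken as 0, the old and young ranges were apart for Asl and Gatm in kidney (higher in old) and for Otc, Nags (lower in old) and Ass1 (higher in old) in liver. The exact two-sided permutation p was 0.1 in each case, the smallest that 3 against 3 can give, and the adjusted p over 28 tests was 0.233. Gatm fold enrichment in kidney was 3.87 ± 0.33 in young and 5.31 ± 1.03 in old (n = 3 each), where its RNA was lower in old. The means of Ass1 and Gamt were higher in old kidney too, by 0.576 and 0.726, with ranges overlapping. Nags differed by -0.902, its ranges overlapping as well. Old kidney libraries had 93072 to 108970 peaks each, and young kidney libraries 115836 to 128395. The share of all genes with ranges apart was not counted, so these shifts are not shown to be particular to the members.

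**Figure D4:**
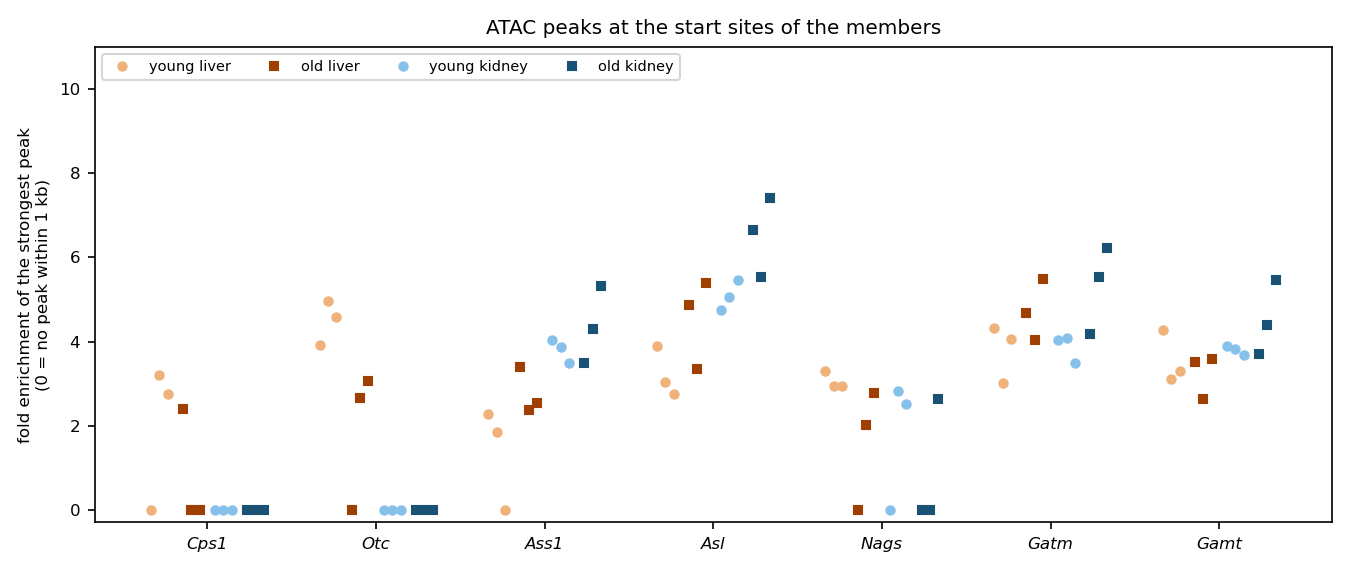
Fold enrichment of the strongest ATAC-seq peak within 1 kb of the start site of each member, in 3 libraries for each of 4 groups, with 0 for no peak. Cps1 and Otc have no peak in kidney, Cps1 has a peak in 2 of 3 young and 1 of 3 old liver libraries, and Asl, Gatm and Gamt have peaks in all 12 libraries.

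Treatment with 3C was compared with DMSO in kidney, liver and fibroblasts. In kidney, 0 of 14974 genes (0%) were called by edgeR, with 1786 at an unadjusted p under 0.05 and 5 called by DESeq2. In liver, 0 of 13042 (0%) were called, with 436 at an unadjusted p under 0.05 and 2 by DESeq2. Of the 4 members tested in kidney, Gatm differed by 0.17 on the log2 scale (95% interval -0.18 to 0.52), Asl by 0.21 (-0.10 to 0.53), Gamt by 0.01 (-0.17 to 0.19) and Nags by -0.63 (-1.27 to 0.01). Of the 6 tested in liver, only Asl had groups apart, at 399, 386, 351 and 334 RPKM with DMSO and 315, 293, 315 and 241 with 3C (log2 -0.31, SE 0.14, edgeR adjusted p 1.0). How many of all genes had groups apart here was not counted. Cps1 differed by -0.04 (-0.34 to 0.25) and Otc by -0.00 (-0.30 to 0.29). The interaction of 3C with organ was called for 0 of 15526 genes (0%), 554 of them at an unadjusted p under 0.05, and for 0 by DESeq2. None of the 6 lists around the cycle had a gene called in kidney or liver.

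In fibroblasts 1.87% of 13449 genes were called by both thresholds and 4.22% by adjusted p alone, and 0 of the 2 members tested were among either. Gamt was at 24.5, 20.0 and 24.3 RPKM with DMSO and 27.3, 36.3 and 37.6 RPKM with 3C, with the groups apart (log2 0.51, SE 0.17, edgeR adjusted p 0.11). Asl differed by -0.08 (-0.33 to 0.16). Among neighbouring genes, 0 passed both thresholds. By adjusted p alone, the polyamine synthesis genes Odc1 (-0.87, SE 0.12) and Srm (-0.56, SE 0.12) were lower and Ddah2, which breaks down methylarginines, was higher (0.62, SE 0.12). Cth (-0.97) and the aspartate aminotransferase Got1 (-0.49) were lower too, and 3 of 8 regulators were higher (Cebpa 0.74, Foxo1 0.85 and Klf15 0.93). In the same libraries 2 of 8 macrophage markers were lower by adjusted p alone, Lyz2 (-1.35, SE 0.18), which passed both thresholds, and Csf1r (-0.94, SE 0.17). The macrophage sum was 279 to 359 CPM with DMSO and 113 to 171 CPM with 3C, none of the 8 was at 0 in all libraries, and the fibroblast marker sum was 17434 to 23824 and 18374 to 23929 CPM. The part of these cells in the changes was not tested. All genes named here by adjusted p alone were chosen after their values were seen.

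**Figure D5:**
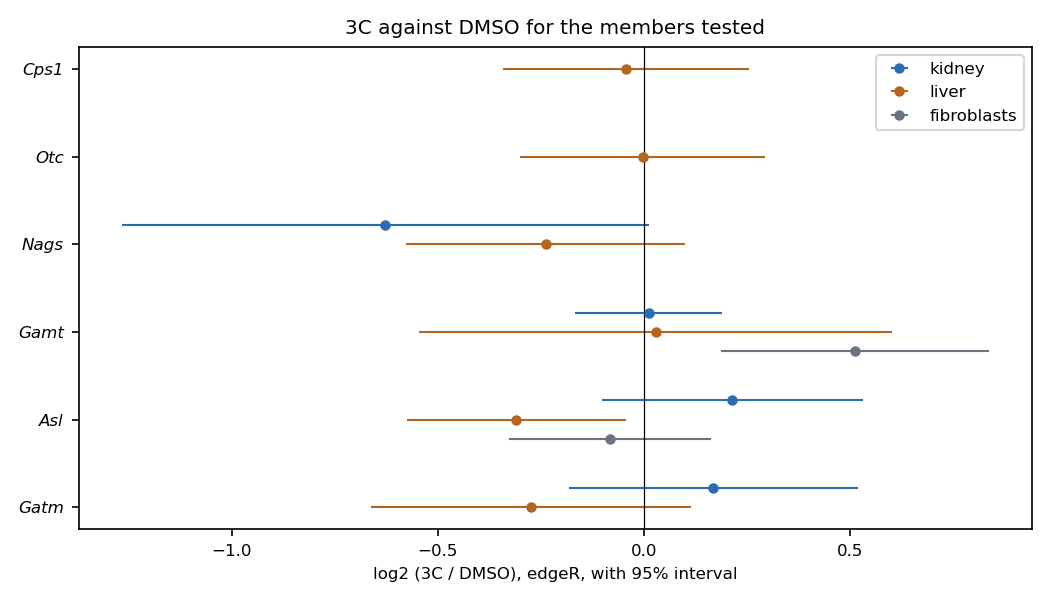
Difference between 3C and DMSO for the members tested, as log2 (3C / DMSO) with 95% interval, in kidney, liver and fibroblasts. The bars of Asl in liver and Gamt in fibroblasts leave out 0, the others include it, and none of these members passed after adjustment.

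Across the 38 libraries, the genes with the pattern most like each member, by Pearson correlation of log2 CPM, are given as a description. Cps1 went with Mat1a (r = 0.9974), Plg and Apoa5, Otc with Hsd17b13 (0.9983) and Ugt2b36, and Nags with Asgr2 (0.9879), F12 and Tfr2. Gatm went with Pdzk1 (0.9928), Prss8 and Sh3tc1. Asl went with Timd2 (0.98), Ttr and Cbs, and Gamt with BC024139 (0.9822), Ebpl and Paox. For Ass1 the highest value was 0.6067, with Dhrs1. The libraries share 3 tissues and fall into clusters by tissue, and no test was made.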

How the data were processed

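The 50 samples (38 RNA-seq, 12 ATAC-seq) were placed in 14 groups from their labels. For RNA-seq the authors used Trimmomatic 0.39, then HISAT2 2.2.1 on mm10, then HTSeq 0.12.4 with no strand setting, and deposited unnormalized read counts for 24984 genes. Tallies of unaligned and multiply mapped reads are filled in for the untreated libraries and 0 for those with DMSO or 3C, so these sets were never tested against each other. Between 8.05% and 21.3% of the tallied reads per library fell outside genes and were left out. For ATAC-seq the authors aligned with Bowtie2 2.3.5.1, kept uniquely mapped reads and ran MACS2 on each library alone. For each peak the deposited lists hold a fold enrichment (a ratio over local background) and −log10 p and −log10 q. No peak lay past the end of the 21 GRCm38 chromosomes.

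Some genes are not reported here and enter no count of members or lists. The members and the gene lists were chosen with earlier results of these data known. Only the groups of a comparison entered its fit, which was the two-sided quasi-likelihood test of edgeR 4.0.16 under R 4.3.3. Library sizes were scaled by TMM, and genes were kept by filterByExpr (count of at least 10). Calls needed an adjusted p (Benjamini-Hochberg, over all genes kept) below 0.05 together with a fold beyond 2 or 0.5, and interactions needed the adjusted p only. The SE was derived from the estimate and its F statistic, and the 95% intervals are normal intervals from it. Levels are RPKM over RefSeq exons of GRCm38.p6, from plain library totals. Groups are called apart where their ranges do not overlap, and the share of all genes apart was not counted for any comparison. Ratios used 0.5 counts as pseudocount. Exon words of 50 bases were matched exactly to the GRCm38.p6 chromosomes. Fits and the permutation test were checked on simulated data. Named genes were the members, up to 4 called genes with the smallest p per list and comparison, a fixed set of neighbours, and the 3 genes most correlated with each member, leaving out names of the Gm or Rik kind. Alternatives were DESeq2 1.42.0, RLE scaling, unscaled library size, no filter, the replicate number as a block, and fits that each dropped 1 library, and for peaks a −log10 q of 5, equal peak numbers and summits.

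Replicates differed beyond sampling noise. Where nothing says that they came from separate animals or cultures, p values measure only the spread between these samples. Counting intervals and floors cover counting error only. In young kidney and liver, same-numbered libraries deviated together in all 4 pairs (r 0.105 to 0.459), though the labels do not state a pairing. The values given are from fits without the block, which is an alternative.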

Additional observations from a re-analysis of the deposited data

Results flagged for a closer look

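Of 47 sets of 4 libraries with member levels, 3 held a library far from the other 3 (by Dixon's test, which chance flags in about 1 of 20 sets). Cps1 in old kidney replicate 2 was 25.9 RPKM against 0 to 0.0161 in the others, Otc there 6.51 against 0, and Nags 1.37 against 0.162 to 0.359.

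The change with age differed between liver and kidney for 3 of 83 neighbouring genes tested, beside 1.72% of all 15036 genes, by an interaction in edgeR (liver change minus kidney change). Slc3a1 differed by 2.06 (SE 0.34, adjusted p 0.0054), with kidney at 265 ± 7.2 and 279.5 ± 35 RPKM (n = 4 each) in young and old. Slc7a7 differed by 0.997 (SE 0.24, adjusted p 0.048), and by 0.92 (adjusted p 0.108) without old kidney replicate 2. Creb3l3 differed by -5.42 (SE 1.07, adjusted p 0.018), and by -4.50 (adjusted p 0.016) without that library, its kidney level being 0.0326 ± 0.0278 RPKM in young and 1.09 ± 1.22 in old (n = 4 each). Without old kidney replicate 2, the GABA and taurine carrier Slc6a13, from the creatine handling list, was called as well, at -1.12 (SE 0.25, edgeR adjusted p 0.042), against -0.97 (SE 0.26, adjusted p 0.077) with it.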

How the results depend on the processing

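Between kidney and liver, 1 member was called higher and 5 lower in all 3 comparisons whichever library was left out, and 4 lower in young with plain library size. With age in kidney, the count of members called higher was 1 with no filter on low counts, and the count called lower was 1 by adjusted p alone. For the difference of age effects between organs, 2 members were called lower by DESeq2 (Cps1 and Nags), and leaving out 1 library gave 0 to 1, the 1 being Nags without old kidney replicate 1 or 4. Cps1 rests on old kidney replicate 2, which held 3480 of 3483 old kidney reads, and with 1 library left out its edgeR estimate of -12.32 reached -2.71. The cause of these changed calls was not tested. Over all genes, plain library size called 9042 against 5987 genes between young kidney and liver and 8936 against 5933 in old, and DESeq2 called 595 against 267 with age in liver and 744 against 258 for the difference between organs. List counts and pooled folds without old kidney replicate 2, list counts with plain library size and the tubule sum without Kap were added after seeing the data. With a −log10 q of at least 5, 3 members rather than 5 had a peak in all young liver libraries. Of 304 recomputed counts of members, 299 stayed within 1.5 times. Of 792 recomputed single values, 786 kept their side of the thresholds, and 34 changed sign, all of them values that were called under neither setting. DESeq2 gave no adjusted p for 2 values. The 36 recomputed ratios stayed uncalled too. This says little, because the exact permutation p of 4 against 4 is at least 0.0286 before adjustment over 15 tests. With TMM over 38 libraries, 6 of 7 highest group levels moved by more than 1 SD, and the highest group became old liver for Asl.

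With the replicate block, the pairing changed no call of a member by both thresholds, and 6004 against 5987 genes were called between young kidney and liver. Elsewhere the correlations of same-numbered libraries ran from -0.312 to 0.332, and whether the numbers pair libraries there is not settled. Between liver with 3C and with DMSO, 3 of 4 libraries matched their own number best (r -0.114 to 0.22). The same held for 2 of 4 between old kidney and liver (r -0.295 to 0.26) and between kidney and liver with DMSO (r 0.011 to 0.126).

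Depth limits Cps1, Otc and Nags in kidney. Groups of 3 cannot give an exact permutation p below 0.1.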

Other observations

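Among genes near the cycle, 2 more were hardly counted. Amd1, which makes the aminopropyl donor for polyamines, was listed at 0 reads in all 38 libraries, and Oaz1, the antizyme that controls Odc1, at 0 or 1. Of their exonic words of 50 bases, 88.9% and 87.3% occurred elsewhere in the genome, in Amd2 and Amd-ps3 for the former and in the pseudogene Oaz1-ps for the latter, and Amd2 and Oaz1-ps were at 0 reads in every library. These counts cannot be read as levels.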
